A study of Mus musculus with 12 samples.

Results

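The axon guidance ligands and receptors of the mouse auditory nerve were the semaphorins, plexins, neuropilins, ephrins, Eph receptors, Slits, Robo receptors, netrins, Dcc and the Unc5 receptors. They were taken by symbol: every probe set that the platform annotation ties to exactly 1 gene symbol beginning with Sema, Plxn, Nrp1, Nrp2, Epha, Ephb, Efna, Efnb, Slit, Robo, Ntn or Unc5, or equal to Dcc, with the Slitrk and Ntng genes left out. This gave 156 of 45037 probe sets and 71 of 18193 genes, of which 68 were guidance genes. The other 3 (Unc50, Unc5cl and Plxna4os1) shared only the letters of the symbol and were counted apart. Each gene was read from its probe set with the highest mean over the 12 arrays, and 25 of the genes had no other probe set to compare it with.

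The study treated 1 ear of adult CBA/CaJ mice with ouabain, a blocker of the sodium pump that is used in mice to kill type I spiral ganglion neurons, and profiled the auditory nerve within the core of the cochlea once the outer bone and the lateral wall had been dissected away. There were 4 groups of 3 arrays. Ouabain nerves at 3 days and ouabain nerves at 7 days came from the right ear, where 3 mM ouabain was placed at the round window and renewed over 60 min. Control nerves at 3 days and control nerves at 7 days came from the left ear. The 3-day controls, and the 7-day controls by the study's design, were the opposite ears of treated mice and had no surgery, so that the surgery and the drug cannot be told apart. Mice of both sexes, aged 8 to 12 weeks at treatment, were used, with no engineered allele named, and by the methods those with a small hearing threshold shift were left out. Each array held RNA of 2 pooled preparations, and which animals entered which pool was not given, so that p-values measure the spread between these arrays alone.

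Guidance cues are secreted or membrane-bound proteins that steer growing axons and also act on glia, vessels and immune cells. Semaphorins act through plexins, and the secreted class 3 members mostly need a neuropilin as co-receptor. Ephrin-A ligands are held in the membrane by a lipid anchor and ephrin-B ligands cross it, and both meet Eph receptor kinases on a neighbouring cell and can signal back into their own cell. Slits repel axons through Robo receptors, whereas netrins attract axons through Dcc and repel them through Unc5 receptors. In the developing cochlea these systems help to lay out the bundles of spiral ganglion axons, and after nerve injury several of them change in glia and in severed neurons.

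Levels are log2 values, so that a difference of 1 is a doubling. A gene was called changed where its ouabain and control arrays differed by more than 1.5-fold with a Benjamini-Hochberg adjusted p under 0.05 in limma, adjusted over all 45037 probe sets. Of the 71 genes, 62 read above 6, close to the median of every array (6.01 to 6.09), on at least 3 arrays, and 8 read above 6 on none. These 8 were Epha6, Epha8, Robo2, Robo3, Efna3, Ntn3, Unc5cl and Plxna4os1, and none of them was called. Of all 18193 genes, 12752 read above 6 on at least 3 arrays and 5028 on none. The members were thus brighter as a set, and the values over all genes given below were not matched for level.

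At 3 days 9 of the 71 genes were called higher (12.7%, against 7.51% of all 18193 genes) and 8 lower (11.3%, against 8.06%). At 7 days 10 were called higher (14.1%, against 7.57% of all genes) and 7 lower (9.86%, against 8.2%). The changes went both ways within the same system. Higher at both days were 6 genes (Sema4b, Sema4f, Efna2, Efna4, Plxnb3 and Plxnd1), lower at both days were 6 (Sema3a, Sema3e, Sema7a, Epha4, Dcc and Unc5d), and none was called in opposite directions. A further 5 genes were called at 3 days alone and 5 at 7 days alone, which left 49 called at neither day. The median log2 fold change of the members was -0.01 at 3 days and 0.19 at 7 days, against 0.01 and 0.03 over all genes, and the median size of the change was 0.22 and 0.35, against 0.18 and 0.21. At 7 days 45 of 71 members (63.4%) lay above 0, against 54.2% of all genes. Ligands and receptors both held genes of either direction: among 35 ligands 7 were higher and 4 lower at 3 days and 5 and 3 at 7 days, and among 33 receptors 2 were higher and 4 lower at 3 days and 5 and 4 at 7 days. Numbers called by family below are to be read against the shares of all genes, and in small families they are counts only.

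**Figure D1:**
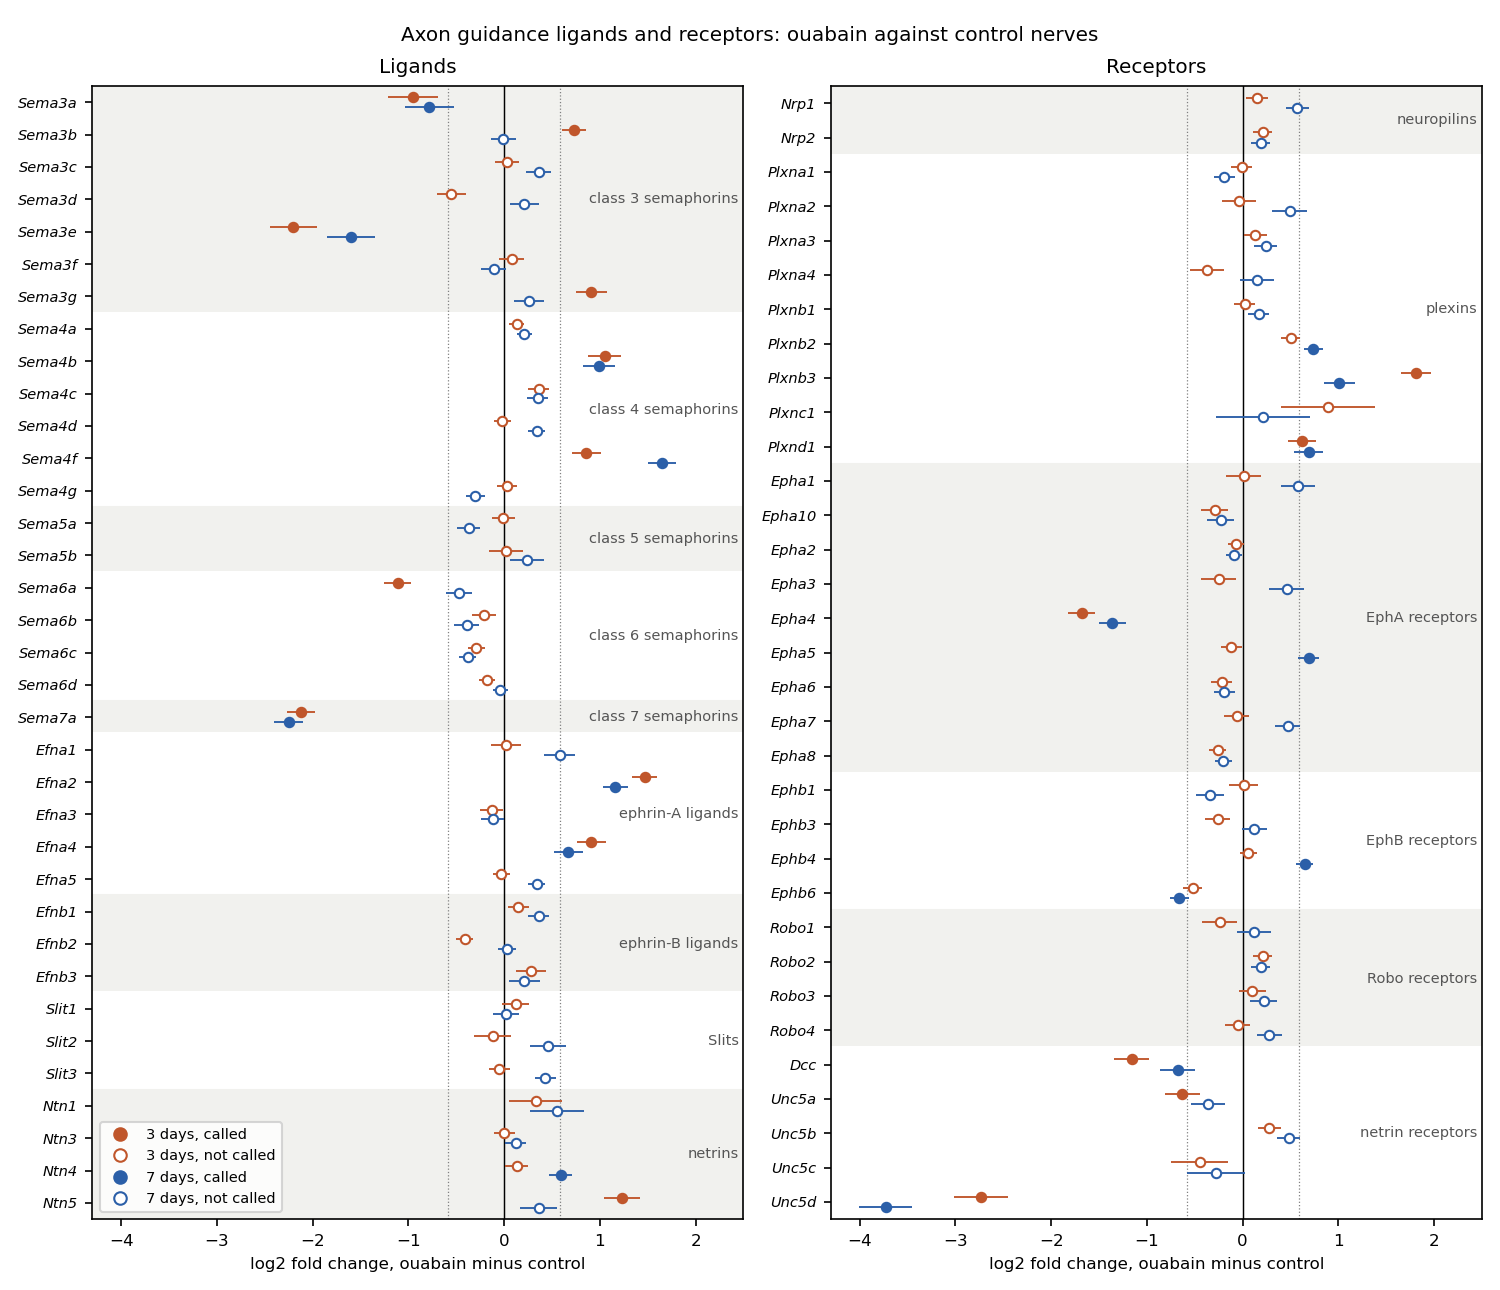
Log2 fold change of the 68 guidance genes, ouabain minus control, at 3 days (orange) and 7 days (blue). Points are limma estimates, whiskers their standard errors, filled points were called, and dotted lines mark 1.5-fold. The lower calls run out to -3.73 for Unc5d and the higher ones to 1.81 for Plxnb3, and no gene has filled points on both sides of 0.

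Marker genes of several cell types differed between the groups, and in bulk tissue fewer cells of a type and less RNA per cell cannot be told apart. Of 14 spiral ganglion neuron markers, 13 were lower at both days, and their summed linear level was 11000 to 27200 in ouabain nerves against 73800 to 78600 in control nerves at 3 days, and 6570 to 16100 in ouabain nerves against 68800 to 75800 in control nerves at 7 days. The first ouabain array of each day kept the most neuronal signal, with a marker median of -1.55 relative to control at 3 days (-2.88 and -2.95 in the other ouabain arrays) and -2.37 at 7 days (-3.64 and -3.91). The 9 markers of immature and repair Schwann cells held 8 higher genes and 1 lower one on either day, and the 7 of myelinating Schwann cells held 2 lower genes at 3 days and 4 at 7 days. Macrophage markers were higher in 11 of 11 cases at 3 days and in 10 of 11 at 7 days. All 7 markers of dividing cells were higher at 3 days and none was called at 7 days. Of 10 endothelial markers none was called at 3 days and 1 was higher at 7 days, and of 8 fibroblast markers 2 and 4 were higher. All 14 neuron markers read above 6 on at least 3 arrays, and 4 of 8 hair cell markers on none. None of 8 hair cell, 6 lateral wall or 7 marrow and blood markers was called at either day. In control replicate 1 of 7 days the marrow and blood median lay 1.29 above the control mean (-0.03 and -0.79 in the other controls). The dividing-cell median of that array was 1.32 (-0.57 and -0.75), so that 1 outlying control array entered the 7-day counts of both lists. Of 6 markers of central nervous system glia 3 were higher at 3 days and 2 at 7 days, led by Gfap at 1.89 on both. Aqp4 was also higher at both days (0.67 and 0.92) and Olig2 at 3 days (0.73), while Mog, Mobp and Slc1a3 were called at neither day. Gfap does not mark central glia alone here, as the study stained it in peripheral nerve glia 3 days after ouabain. Single markers were higher among 7 of osteoclasts at each day (Atp6v0d2, 1.04 and 1.31) and, at 7 days, among 6 of osteoblasts (Phex, 0.95) and 7 of supporting cells (Otoa, 0.78). The part of these cell types in the changes below was not tested.

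Sema7a and Sema3e carried the 2 largest decreases among the ligands. Sema7a is anchored in the membrane by lipid and, unlike most semaphorins, can promote axon growth, through integrins. Its probe set read 9.32, 8.82 and 9.04 in ouabain nerves against 11.05, 11.15 and 11.34 in control nerves at 3 days. At 7 days the values were 9.23, 8.93 and 8.75 in ouabain nerves and 11.29, 11.28 and 11.10 in control nerves. Every ouabain array lay far below every control array, and the level was about the same at both days. In the limma fit the change was -2.12 at 3 days (SE 0.15, adjusted p = 1.4e-06) and -2.25 at 7 days (SE 0.15, adjusted p = 9.69e-07). The second Sema7a probe set gave -2.01 and -1.80.

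Sema3e, a secreted class 3 semaphorin that binds plexin D1 directly, read 8.90, 8.93 and 7.81 in ouabain nerves against 10.90, 10.73 and 10.61 in control nerves at 3 days. The 7-day arrays read 9.08, 9.01 and 9.49 in ouabain nerves against 10.85, 10.92 and 10.60 in control nerves. No arrays overlapped at either day, and the spread at 3 days came from the third ouabain array, which was the lowest. On the log2 scale the change was -2.20 at 3 days (SE 0.25, adjusted p = 4.88e-05) and -1.60 at 7 days (SE 0.25, adjusted p = 0.000552). The 4 Sema3e probe sets parted at 7 days. All 4 were lower at 3 days, with the other 3 at -1.18, -1.29 and -0.71, but at 7 days those 3 stood at 0.15, -0.03 and -0.16 and none was called. For the probe sets at -1.18 and -1.29 the difference between the days passed the test (1.33, adjusted p = 0.0431, and 1.27, adjusted p = 0.0463), whereas for the brightest one it was 0.60 (adjusted p = 0.528). The mean over the 4 probe sets was -0.41 at 7 days (adjusted p = 0.116). Sema3e was therefore lower at 3 days by every probe set, and at 7 days only by its brightest.

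Sema3a, which repels axons through neuropilin-1 and plexin-A receptors, read 7.83, 7.56 and 7.03 in ouabain nerves against 8.54, 8.58 and 8.16 in control nerves at 3 days. At 7 days it read 7.90, 8.30 and 7.26 in ouabain nerves and 8.81, 8.32 and 8.66 in control nerves. The groups did not overlap, though at 7 days the highest ouabain array all but reached the lowest control array. Ouabain minus control was -0.95 at 3 days (SE 0.26, adjusted p = 0.0172) and -0.78 at 7 days (SE 0.26, adjusted p = 0.0445). The call was the least stable of those made at both days. It was lost at 3 days without control replicate 1 (-0.90, adjusted p = 0.059), control replicate 2 (-0.88, adjusted p = 0.0619) or ouabain replicate 3 (-0.73, adjusted p = 0.0825). At 7 days it was lost without any of 7 arrays, with the change between -0.82 and -0.50 and adjusted p up to 0.158. These were control replicates 1 and 3 and ouabain replicates 1 and 3 of that day and, through the shared variance, control replicates 1 and 2 and ouabain replicate 2 of 3 days. The other 2 Sema3a probe sets were called at neither day. Sema3a lies next to Sema3d on chromosome 5, and 3 coding genes part it from Sema3e. Sema3d read -0.55 at 3 days (adjusted p = 0.0206, short of 1.5-fold) and 0.21 at 7 days.

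Sema3b and Sema3g, also of class 3, were higher at 3 days alone. Sema3b read 10.48, 10.64 and 11.00 in ouabain nerves against 10.02, 9.96 and 9.95 in control nerves at 3 days, and 9.79, 9.56 and 9.93 in ouabain nerves against 9.78, 9.81 and 9.72 in control nerves at 7 days. Sema3g, which vessel walls make, read 7.99, 8.45 and 8.29 in ouabain nerves against 7.08, 7.48 and 7.43 in control nerves at 3 days, and 7.19, 7.35 and 7.39 in ouabain nerves against 6.75, 7.21 and 7.19 in control nerves at 7 days. Both genes stood clear of control at 3 days and overlapped it at 7 days. Sema3b had log2 fold changes of 0.73 at 3 days (SE 0.13, adjusted p = 0.00107) and -0.01 at 7 days (adjusted p = 0.982), and without ouabain replicate 3 the 3-day value was 0.58, just under 1.5-fold. For Sema3g the values were 0.91 (SE 0.16, adjusted p = 0.000958) and 0.26 (adjusted p = 0.263). Set against each other, ouabain nerves at 7 days lay below ouabain nerves at 3 days by -0.94 for Sema3b (adjusted p = 0.00148) and -0.93 for Sema3g (adjusted p = 0.00566), but the difference between the 2 responses, with control taken off at each day, did not pass (-0.74, adjusted p = 0.0901, and -0.65, adjusted p = 0.221). Sema3c and Sema3f were called at neither day.

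Among the 6 class 4 semaphorins, membrane proteins that act through plexin-B and other receptors, 2 were higher at both days and none was lower. Over all 18193 genes 757 were higher at both days, and with 6 genes this is a count only. Sema4f, which in rat Schwann cells takes part in their contact with axons, read 8.66, 8.90 and 9.01 in ouabain nerves against 7.98, 7.95 and 8.06 in control nerves at 3 days. The 7-day arrays read 9.49, 9.33 and 9.89 in ouabain nerves against 8.14, 7.78 and 7.83 in control nerves. Ouabain nerves stood above control at both days and higher at 7 days than at 3 days, by 0.71 (adjusted p = 0.0165). The log2 fold change was 0.86 at 3 days (SE 0.15, adjusted p = 0.000946) and 1.65 at 7 days (SE 0.15, adjusted p = 8.03e-06), which is 3.14-fold, and the difference between the responses was 0.79 (adjusted p = 0.112). The brightest Sema4f probe set is of the kind whose probes can match other transcripts. The second one gave 0.49, short of the fold threshold, at 3 days and 1.16 at 7 days.

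Sema4b read 8.85, 9.29 and 9.37 in ouabain nerves against 7.87, 8.25 and 8.25 in control nerves at 3 days, and 8.86, 8.81 and 9.27 in ouabain nerves against 7.94, 7.86 and 8.18 in control nerves at 7 days. The groups were apart at both days by about the same distance. In the limma fit the change was 1.05 (SE 0.17, adjusted p = 0.000619) and 0.99 (SE 0.17, adjusted p = 0.00102). A second Sema4b probe set was higher at 3 days (0.68) and not called at 7 days (0.27). Sema4a, Sema4c, Sema4d and Sema4g were called at neither day.

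All 4 class 6 semaphorins, transmembrane ligands of plexin-A receptors, had estimates below 0 at both days, and 1 was called. Sema6a read 6.24, 6.53 and 6.26 in ouabain nerves against 7.20, 7.48 and 7.70 in control nerves at 3 days, and 6.48, 6.53 and 6.77 in ouabain nerves against 6.94, 7.26 and 6.98 in control nerves at 7 days. Ouabain arrays stayed below control arrays at both days. On the log2 scale the change was -1.11 at 3 days (SE 0.14, adjusted p = 0.000113) and -0.47 at 7 days (adjusted p = 0.0307, short of 1.5-fold). It rested on 1 probe set, since the other 2 read -0.10 and -0.09 at 3 days, and the mean over the 3 was -0.43. Sema6b, Sema6c and Sema6d were called at neither day. The class 5 semaphorins were not called: Sema5a, a transmembrane ligand of plexin B3, had -0.01 at 3 days and -0.37 at 7 days, and Sema5b had 0.02 and 0.24.

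Of the semaphorins called at both days, the 3 with the largest 7-day changes are shown with their upstream sequence, because they moved in opposite directions. Each line is the 250 bases before the RefSeq start of the gene (GRCm38.p6), 5′ to 3′ on the strand of the gene: chr6:82939770-82940019 on the minus strand for Sema4f, chr9:57939862-57940111 on the plus strand for Sema7a and chr5:14025026-14025275 on the plus strand for Sema3e. Capitals mark a Sox-type motif (ACAAAG or ACAATG, or CTTTGT or CATTGT on the other strand) or a GC box (GGGCGG, or CCGCCC on the other strand).
Sema4f: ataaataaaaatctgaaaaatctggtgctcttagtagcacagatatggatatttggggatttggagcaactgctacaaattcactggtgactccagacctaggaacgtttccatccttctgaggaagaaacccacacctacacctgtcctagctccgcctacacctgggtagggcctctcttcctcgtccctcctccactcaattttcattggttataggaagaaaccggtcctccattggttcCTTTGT
Sema7a: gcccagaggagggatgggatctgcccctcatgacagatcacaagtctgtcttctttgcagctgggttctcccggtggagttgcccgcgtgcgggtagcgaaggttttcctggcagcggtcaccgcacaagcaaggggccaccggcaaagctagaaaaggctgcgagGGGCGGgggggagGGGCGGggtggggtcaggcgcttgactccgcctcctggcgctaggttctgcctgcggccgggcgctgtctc
Sema3e: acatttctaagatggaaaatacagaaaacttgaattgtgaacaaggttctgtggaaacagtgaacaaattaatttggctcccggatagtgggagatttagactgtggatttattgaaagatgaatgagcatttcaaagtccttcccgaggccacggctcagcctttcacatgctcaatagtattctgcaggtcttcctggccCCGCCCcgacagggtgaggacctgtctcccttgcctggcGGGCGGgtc
The Sema4f window held 1 Sox-type match, ending against the start, and no GC box. Those of Sema7a and Sema3e held 2 GC boxes each and no Sox-type match. A match is a run of letters and says nothing of whether a factor sits there.

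Of 9 plexins, the receptors of semaphorins, the 3-day arrays called 2 higher and the 7-day arrays 3, with none lower. Over all genes 7.51% and 7.57% were called higher and 8.06% and 8.2% lower, so that with 9 genes this is a count only. Plxnb3, a receptor of Sema5a, read 10.04, 10.23 and 10.56 in ouabain nerves against 8.57, 8.61 and 8.21 in control nerves at 3 days. At 7 days it read 9.31, 9.16 and 9.60 in ouabain nerves against 8.31, 8.49 and 8.24 in control nerves. The groups were wide apart at 3 days and closer, still without overlap, at 7 days. Ouabain minus control was 1.81 at 3 days (SE 0.16, adjusted p = 7.45e-06), which is 3.51-fold, and 1.01 at 7 days (SE 0.16, adjusted p = 0.000545). Ouabain nerves at 7 days lay 0.92 below those at 3 days (log2 difference -0.92, adjusted p = 0.00667), while the difference between the responses was -0.80 (adjusted p = 0.137). A second probe set gave 2.17 and 1.24.

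Plxnd1, the receptor of Sema3e and a gene of vessels and some neurons, read 9.12, 9.59 and 9.53 in ouabain nerves against 8.59, 8.78 and 9.02 in control nerves at 3 days, and 9.43, 9.53 and 9.66 in ouabain nerves against 8.71, 9.09 and 8.76 in control nerves at 7 days. Plxnb2, a receptor of class 4 semaphorins, read 9.99, 10.14 and 10.17 in ouabain nerves against 9.49, 9.61 and 9.71 in control nerves at 3 days, and 10.17, 10.38 and 10.41 in ouabain nerves against 9.41, 9.65 and 9.68 in control nerves at 7 days. Ouabain arrays lay above control arrays for both genes at both days. Plxnd1 had log2 fold changes of 0.62 (SE 0.15, adjusted p = 0.0101) and 0.69 (SE 0.15, adjusted p = 0.00538), close to the threshold of 1.5-fold. At 3 days it fell under that fold without control replicate 1 (0.51), ouabain replicate 2 (0.53) or ouabain replicate 3 (0.56). For Plxnb2 it was 0.50 at 3 days (adjusted p = 0.00387, short of 1.5-fold) and 0.74 at 7 days (SE 0.10, adjusted p = 0.000252). The ligand Sema3e was thus lower and its receptor Plxnd1 higher on the same 3-day arrays. Plxnc1, the other receptor of Sema7a, was too variable to read: its 7-day controls were 9.50, 7.32 and 8.08, and its changes were 0.89 and 0.21 with a standard error of 0.49. Plxna1, Plxna2, Plxna3, Plxna4 and Plxnb1 were called at neither day.

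Neither neuropilin was called. Nrp1, the co-receptor of Sema3a and of vascular growth factors, read 11.99, 11.91 and 12.14 in ouabain nerves against 11.86, 11.98 and 11.76 in control nerves at 3 days, and 12.53, 12.09 and 12.35 in ouabain nerves against 11.68, 11.68 and 11.88 in control nerves at 7 days. At 7 days the arrays did not overlap and the log2 fold change of 0.57 (SE 0.12, adjusted p = 0.00347) was 1.49-fold, just under the threshold. The other 3 Nrp1 probe sets were called higher at 7 days (0.74, 0.83 and 0.80). Nrp2, which class 3 semaphorins such as Sema3f use, had 0.21 and 0.19. The endothelial marker list had a summed linear level of 5830 to 7340 in ouabain nerves against 4000 to 5610 in control nerves at 7 days. At 3 days the ranges overlapped, with 4640 to 5570 in ouabain nerves and 4470 to 4990 in control nerves. Of its 10 markers only Eng was called, at 7 days. The part of this list in the values of Nrp1, Plxnd1 and Ephb4 was not tested.

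The upstream window of Plxnb3, the receptor with the largest increase at 3 days, is shown in the same way (chrX:73756853-73757102, plus strand).
Plxnb3: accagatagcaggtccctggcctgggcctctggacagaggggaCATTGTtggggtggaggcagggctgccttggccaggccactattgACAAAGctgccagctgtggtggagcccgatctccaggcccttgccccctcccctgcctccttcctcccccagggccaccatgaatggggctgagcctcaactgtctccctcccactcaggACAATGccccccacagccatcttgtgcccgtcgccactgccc
It held 3 Sox-type matches and no GC box.

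**Figure D2:**
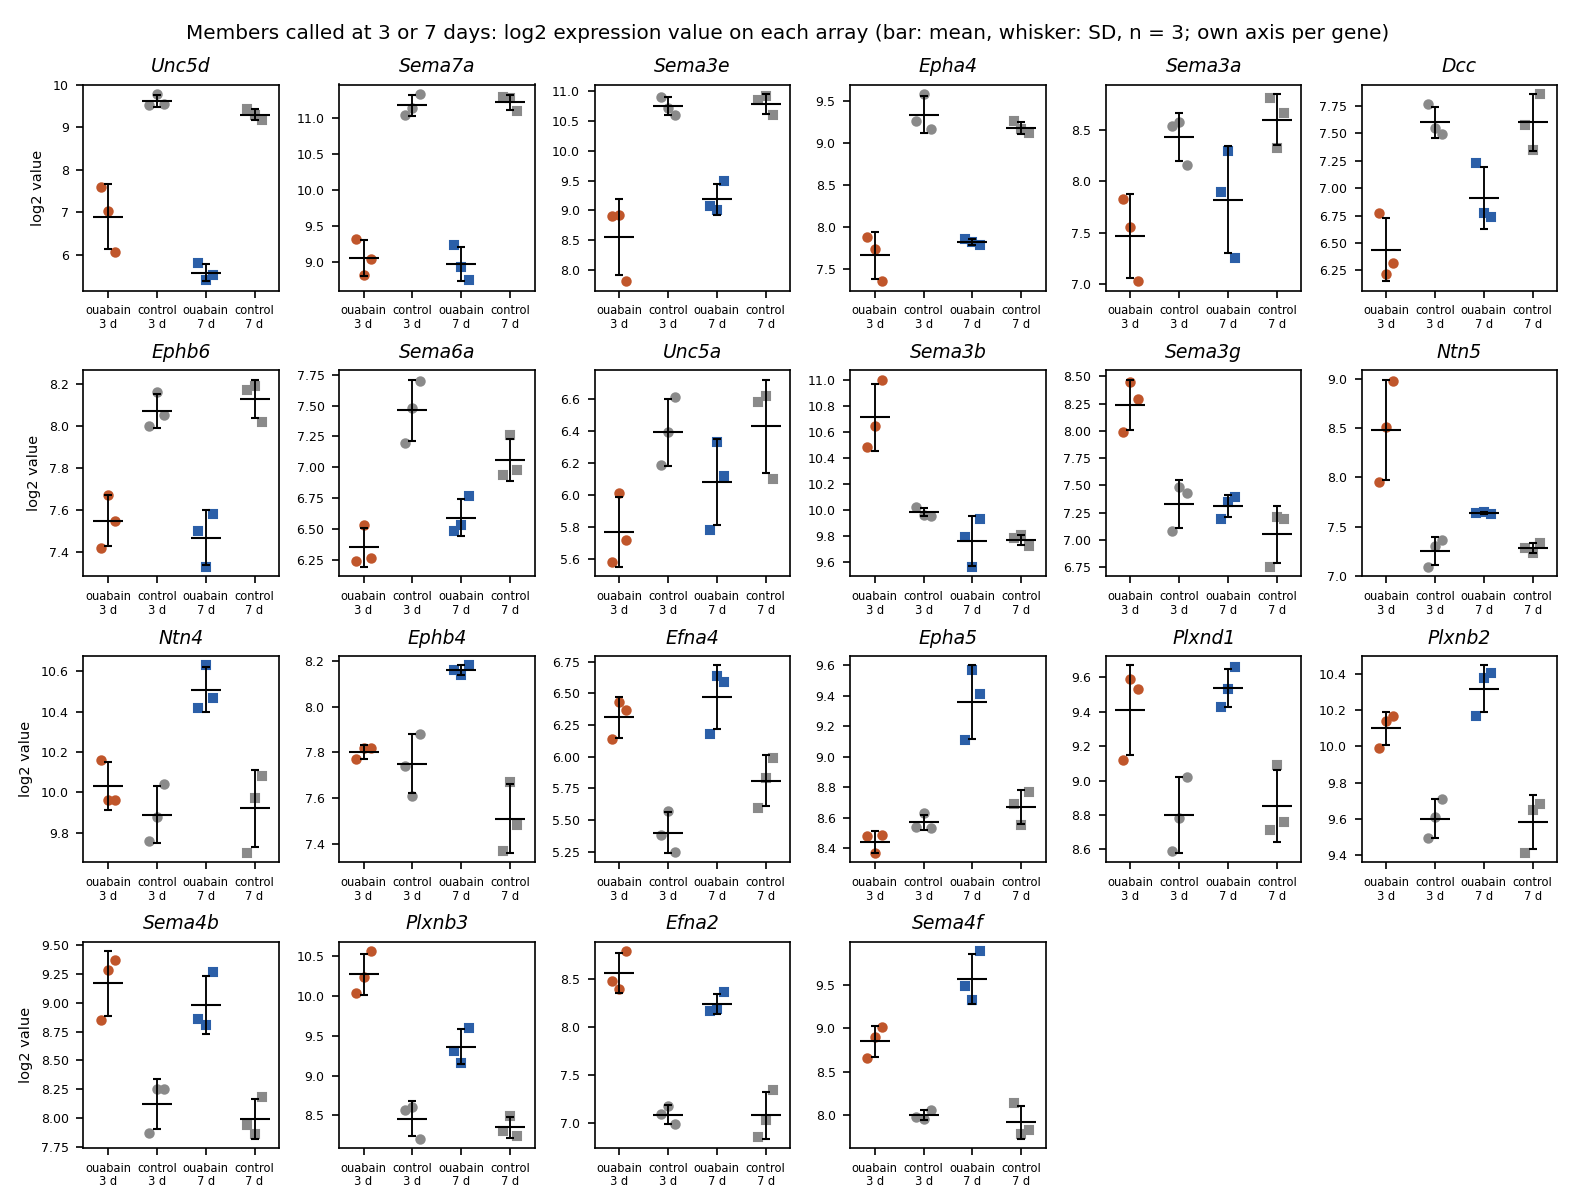
Log2 expression value on each array of the 22 genes called at 3 or 7 days, ordered by the 7-day change. In each panel the groups run ouabain at 3 days, control at 3 days, ouabain at 7 days and control at 7 days; points are arrays, bars means and whiskers SD (n = 3), and every panel has its own axis. Epha5 stands above control at 7 days alone and Ntn5 stands further above control at 3 days than at 7 days.

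Among 8 ephrins the 2 called genes were ephrin-A ligands, both higher at both days, as were 757 of all 18193 genes. Efna2 read 8.48, 8.40 and 8.79 in ouabain nerves against 7.10, 7.18 and 6.99 in control nerves at 3 days. The 7-day arrays read 8.17, 8.19 and 8.36 in ouabain nerves against 6.86, 7.03 and 7.34 in control nerves. The ouabain arrays were tightly grouped well above control at both days. The log2 fold change was 1.47 at 3 days (SE 0.13, adjusted p = 9.21e-06) and 1.16 at 7 days (SE 0.13, adjusted p = 4.85e-05). A second Efna2 probe set was higher at 3 days (0.65) but not called at 7 days (0.20).

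Efna4 read 6.14, 6.43 and 6.37 in ouabain nerves against 5.38, 5.57 and 5.25 in control nerves at 3 days, and 6.18, 6.64 and 6.59 in ouabain nerves against 5.59, 5.83 and 5.99 in control nerves at 7 days. Its control values lay under the array median and its ouabain values just above it, with no overlap. In the limma fit the change was 0.91 (SE 0.15, adjusted p = 0.000598) and 0.67 (SE 0.15, adjusted p = 0.00515), and the 7-day value fell under 1.5-fold without control replicate 1 (0.56) or ouabain replicate 2 (0.58). Efna3, its direct neighbour on chromosome 3, had -0.13 and -0.12 and never read above 6. Efna1, next in that row, had 0.02 at 3 days and 0.58 at 7 days (adjusted p = 0.0179, just short of 1.5-fold).

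Efnb2, an ephrin-B ligand of Ephb4 and Epha4, was not called by its brightest probe set, which read 11.07, 10.75 and 10.98 in ouabain nerves against 11.34, 11.27 and 11.42 in control nerves at 3 days. These groups did not overlap, and the log2 fold change was -0.41 (adjusted p = 0.00542, short of 1.5-fold). Another Efnb2 probe set was called lower at 3 days (-0.81, adjusted p = 0.000817), and at 7 days the brightest one stood at 0.03. Efna5, Efnb1 and Efnb3 were called at neither day.

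The 13 Eph receptors held calls in both directions. Epha4, which binds ephrins of both classes, read 7.88, 7.74 and 7.35 in ouabain nerves against 9.27, 9.59 and 9.17 in control nerves at 3 days. At 7 days it read 7.86, 7.82 and 7.78 in ouabain nerves against 9.26, 9.17 and 9.12 in control nerves. The arrays were far apart at both days. On the log2 scale the change was -1.68 at 3 days (SE 0.14, adjusted p = 4.49e-06) and -1.36 at 7 days (SE 0.14, adjusted p = 1.96e-05). Of its 5 probe sets 4 were lower at both days, and the fifth, near the bottom of the scale, was not called.

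Epha5, a receptor of ephrin-A ligands found mostly on neurons, was the only member to pass the test of a difference between the days (1.17% of all genes did so). It read 8.48, 8.37 and 8.49 in ouabain nerves against 8.54, 8.63 and 8.53 in control nerves at 3 days. The 7-day arrays read 9.11, 9.57 and 9.41 in ouabain nerves against 8.69, 8.55 and 8.77 in control nerves. On this brightest probe set, ouabain nerves lay just below control at 3 days and well above it at 7 days, with no overlap at either. Ouabain minus control was -0.12 at 3 days (SE 0.11, adjusted p = 0.529) and 0.69 at 7 days (SE 0.11, adjusted p = 0.00068), and the difference between them was 0.81 (SE 0.16, adjusted p = 0.0373). All 4 Epha5 probe sets were higher at 7 days (0.69, 1.53, 1.26 and 0.85) and none was called at 3 days. The 3-day sign was not shared, since the other 3 probe sets had 0.29, 0.3 and 0.28 at 3 days. The day difference passed the test in 3 of the 4 (0.81, 1.25 with adjusted p = 0.000786, and 0.96 with adjusted p = 0.013) and stood at 0.57 (adjusted p = 0.186) in the dimmest. For the brightest probe set it lost its call on leaving out any of 9 of the 12 arrays, with values of 0.71 to 0.84 and adjusted p up to 0.111, the exceptions being control replicate 3 and ouabain replicate 1 of 7 days and ouabain replicate 1 of 3 days. The call of the day difference was also lost where equal replicate numbers were taken as pairs of arrays. At 7 days, where Epha5 was higher, 13 of 14 neuron markers were lower, and which cells gave the Epha5 values was not tested.

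The 2 called EphB receptors moved apart at 7 days. Ephb4, the receptor of Efnb2 on veins, read 7.77, 7.82 and 7.82 in ouabain nerves against 7.74, 7.61 and 7.88 in control nerves at 3 days, and 8.16, 8.14 and 8.18 in ouabain nerves against 7.37, 7.67 and 7.48 in control nerves at 7 days. Ephb6, which lacks kinase activity, read 7.42, 7.67 and 7.55 in ouabain nerves against 8.00, 8.16 and 8.05 in control nerves at 3 days, and 7.50, 7.33 and 7.58 in ouabain nerves against 8.17, 8.19 and 8.02 in control nerves at 7 days. Ephb4 overlapped control at 3 days and not at 7 days, and Ephb6 lay below control at both. Ephb4 had log2 fold changes of 0.06 at 3 days (adjusted p = 0.747) and 0.65 at 7 days (SE 0.09, adjusted p = 0.000262), and the difference between the responses was 0.60 (adjusted p = 0.0645). Ephb6 had -0.52 at 3 days (adjusted p = 0.0016, short of 1.5-fold) and -0.66 at 7 days (SE 0.10, adjusted p = 0.000342). The other receptors (Epha1, Epha2, Epha3, Epha6, Epha7, Epha8, Epha10, Ephb1 and Ephb3) were called at neither day.

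For the ephrin system the windows of Efna2 (chr10:80179232-80179481, plus strand) and Epha4 (chr1:77515089-77515338, minus strand) are shown, as the ligand and the receptor with the largest changes at both days.
Efna2: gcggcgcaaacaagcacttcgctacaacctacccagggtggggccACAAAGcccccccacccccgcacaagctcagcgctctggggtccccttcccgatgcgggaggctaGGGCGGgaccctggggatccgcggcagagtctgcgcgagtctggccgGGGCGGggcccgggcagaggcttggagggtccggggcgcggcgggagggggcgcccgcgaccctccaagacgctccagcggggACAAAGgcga
Epha4: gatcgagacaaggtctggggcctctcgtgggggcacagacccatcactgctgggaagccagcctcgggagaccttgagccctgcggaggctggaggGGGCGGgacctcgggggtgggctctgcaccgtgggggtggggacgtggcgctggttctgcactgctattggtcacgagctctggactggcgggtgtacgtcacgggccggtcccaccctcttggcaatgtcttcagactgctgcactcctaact
The Efna2 window held 2 Sox-type matches and 2 GC boxes, and that of Epha4 held 1 GC box.

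Netrin receptors were lower in 3 of 5 cases at 3 days and in 2 of 5 at 7 days, and none was higher, where 8.06% and 8.2% of all genes were called lower. With 5 genes this is a count only. Unc5d, a repulsive receptor of netrins that also binds Flrt proteins, had the largest change of all members. It read 7.59, 7.02 and 6.07 in ouabain nerves against 9.53, 9.79 and 9.56 in control nerves at 3 days. At 7 days it read 5.79, 5.39 and 5.53 in ouabain nerves against 9.44, 9.29 and 9.17 in control nerves, which put ouabain nerves below the array median. The log2 fold change was -2.73 at 3 days (SE 0.28, adjusted p = 2.38e-05) and -3.73 at 7 days (SE 0.28, adjusted p = 2.64e-06), which is 13.2-fold lower. Ouabain nerves at 7 days lay below those at 3 days by -1.32 (adjusted p = 0.0198), and the difference between the responses was -1.0 (adjusted p = 0.315). At both days the highest ouabain array was the first, the one that also kept the most neuron marker signal. The same order held at both days for Sema7a, Epha4 and Dcc, but not for Sema3e, nor for Sema3a at 7 days. Any link between these values was not tested.

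Dcc, the attractive netrin receptor, read 6.77, 6.22 and 6.32 in ouabain nerves against 7.77, 7.55 and 7.49 in control nerves at 3 days, and 7.23, 6.77 and 6.74 in ouabain nerves against 7.58, 7.35 and 7.86 in control nerves at 7 days. Unc5a, which pairs with Dcc in repulsion, read 5.58, 6.01 and 5.72 in ouabain nerves against 6.19, 6.39 and 6.61 in control nerves at 3 days, and 5.78, 6.33 and 6.12 in ouabain nerves against 6.58, 6.62 and 6.10 in control nerves at 7 days. Dcc stood apart from control at both days, and Unc5a at 3 days only. The log2 fold change of Dcc was -1.16 at 3 days (SE 0.18, adjusted p = 0.000446) and -0.68 at 7 days (SE 0.18, adjusted p = 0.0146), and the 7-day call was lost without control replicate 3 (-0.55, adjusted p = 0.0561), ouabain replicate 2 (-0.61, adjusted p = 0.0546) or ouabain replicate 3 (-0.60, adjusted p = 0.053). A second Dcc probe set was lower at 3 days (-0.84), and the third was called at neither day. Unc5a had -0.63 at 3 days (SE 0.18, adjusted p = 0.024), a call that was lost without control replicate 2 (adjusted p = 0.0594), control replicate 3 (-0.52, adjusted p = 0.0979), ouabain replicate 1 (-0.53, adjusted p = 0.086) or ouabain replicate 3 (-0.60, adjusted p = 0.0759). Unc5b, a receptor of vessels as well as axons, had 0.28 and 0.48 (adjusted p = 0.0103 at 7 days, short of 1.5-fold), and Unc5c had -0.45 and -0.28.

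Of 4 netrins, 1 was higher at each day, where 7.51% and 7.57% of all genes were called higher. Ntn5 read 7.95, 8.51 and 8.98 in ouabain nerves against 7.09, 7.30 and 7.36 in control nerves at 3 days, and 7.64, 7.65 and 7.63 in ouabain nerves against 7.28, 7.23 and 7.33 in control nerves at 7 days. Ntn4, a netrin of basement membranes that binds laminin, read 10.16, 9.96 and 9.96 in ouabain nerves against 9.76, 9.88 and 10.04 in control nerves at 3 days, and 10.42, 10.63 and 10.47 in ouabain nerves against 9.70, 9.97 and 10.08 in control nerves at 7 days. Ntn5 lay above control at both days, and Ntn4 at 7 days only. The log2 fold change of Ntn5 was 1.23 at 3 days (SE 0.19, adjusted p = 0.000472) and 0.36 at 7 days (adjusted p = 0.201). Its 7-day ouabain nerves lay below the 3-day ones by -0.84 (adjusted p = 0.0266), and the difference between the responses was -0.87 (adjusted p = 0.177). Ntn4 had log2 fold changes of 0.13 and 0.59 (SE 0.12, adjusted p = 0.00242 at 7 days), and it fell under 1.5-fold at 7 days without control replicate 1 (0.48) or ouabain replicate 2 (0.53). Ntn1, the main ligand of Dcc, varied widely among its 3-day controls (9.13, 9.67 and 8.66) and was not called (0.33 and 0.55).

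None of the 3 Slits or 4 Robo receptors was called at either day. Slit2 had -0.12 at 3 days and 0.46 at 7 days (adjusted p = 0.109), Slit3 -0.05 and 0.43 (adjusted p = 0.0116, short of 1.5-fold), and Slit1 0.12 and 0.02. Robo1 read 9.52, 9.34 and 9.03 in ouabain nerves against 9.66, 9.77 and 9.18 in control nerves at 3 days and overlapped control at both days (-0.24 and 0.12). Robo4, a receptor of endothelium, had -0.05 and 0.28. Robo2 and Robo3 never read above 6.

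**Figure D3:**
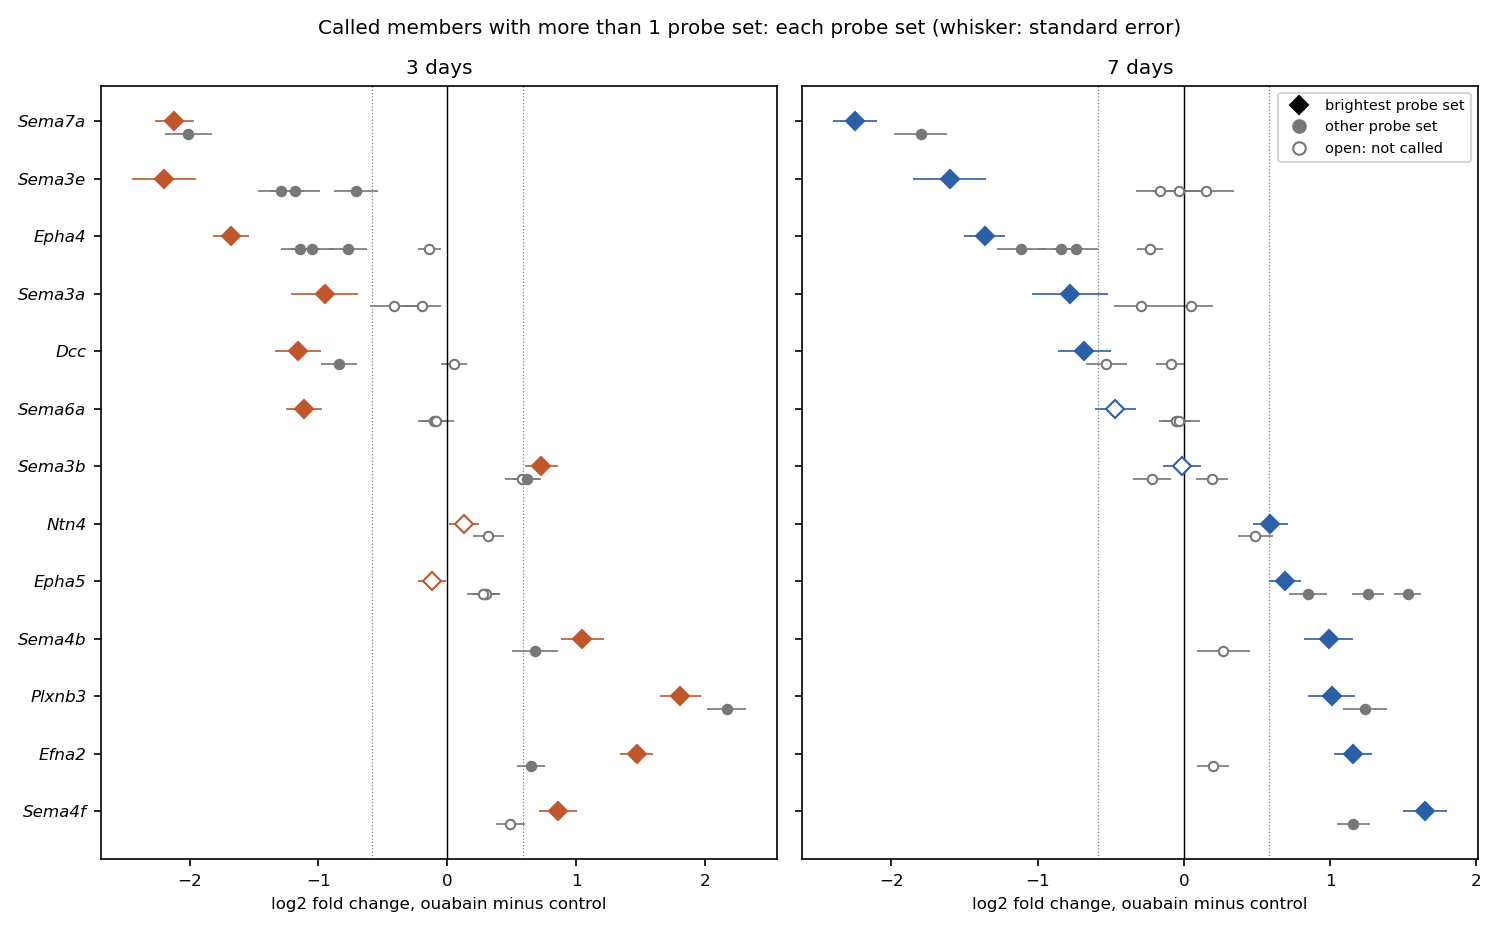
Log2 fold change, ouabain minus control, of each probe set of the called genes that have more than 1, at 3 days and at 7 days. Diamonds are the brightest probe set, grey circles the others, open symbols were not called, and whiskers are standard errors. The 3 grey Sema3e points lie below 0 at 3 days and around 0 at 7 days, whereas all 4 Epha5 points lie above 0 at 7 days.

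Setting ouabain nerves at 7 days directly against ouabain nerves at 3 days, 2 members were higher (Epha5 and Sema4f, against a background of 1.86% of all genes) and 5 were lower (Sema3b, Sema3g, Ntn5, Plxnb3 and Unc5d, against 2.26%). Of the 5 lower genes, Sema3b, Sema3g, Ntn5 and Plxnb3 were called higher at 3 days, and their 7-day level in ouabain nerves lay nearer to control. Dividing-cell markers went the same way, with all 7 higher at 3 days and none at 7 days, where 1 control array stood high in them. Their part in these genes was not tested.

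Upstream windows of 250 bases were available for 60 members (76 starts) and for 32851 starts of 27025 genes. These are more than the 18193 genes read from the arrays, so that the members and all windows are unlike sets. A Sox-type match lay in the windows of 4 of the 6 genes higher at both days (Sema4f, Efna2, Efna4 and Plxnb3), of 1 of the 4 with a window that were lower at both days (Sema3a), of 1 of the 8 called at 1 day and of 7 of the 42 not called. By gene, 13 of the 60 members (21.7%) held a Sox-type match, and no share by gene was taken over all genes. Counted by window, a Sox-type match lay in 17.1% of the 76 member windows, against 25.2% of all windows. The AP-1 motif TGACTCA lay in 2.6% of the member windows, those of 2 genes not called, against 4.5% of all windows. A GC box lay in 72.4% of the member windows, against 32.7% of all windows, and by gene in 3 of the 6 higher at both days and 3 of the 4 lower at both days. The motifs were chosen after the sequences had been seen, the counts are small, and no test was run on them.

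Genes through which these receptors work were taken by list and are given as counts, to be read against all genes, of which 7.51% were called higher and 8.06% lower at 3 days and 7.57% and 8.2% at 7 days. With lists this short, 1 call lies near those shares, and 2 or more are given as counts only. Of 16 semaphorin signal transducers 2 were higher and 1 lower at each day, the lower one being Crmp1, a protein that carries the Sema3a signal to the cytoskeleton, at -1.29 and -1.79 (adjusted p = 3.35e-06 and 3.8e-07). Of 11 Slit and netrin transducers 1 was higher and 3 lower at 3 days and 1 and 1 at 7 days, with Srgap3, a partner of Robo receptors, at -1.17 and -0.94 and Dock1, a Rac activator, at 1.02 and 0.70. Of 9 Eph transducers 2 were lower and none higher at each day: Chn1, which acts below Epha4, had -1.70 and -2.25, and Tiam1 had -0.85 and -1.10. The 8 cytoskeletal effectors held 2 lower genes at 3 days and 1 at 7 days, led by Limk1 at -2.04 and -2.42.

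Co-receptors and adhesion partners had, of 11 genes, 5 that were higher and 1 that was lower at each day. Chl1, a partner of semaphorin receptors, averaged 10.29 in ouabain nerves and 7.32 in control nerves at 3 days and 9.78 in ouabain nerves and 7.77 in control nerves at 7 days (log2 fold change 2.96 and 2.01). Met, a growth factor receptor that binds plexins, averaged 12.07 in ouabain nerves and 9.18 in control nerves at 3 days and 11.36 in ouabain nerves and 9.49 in control nerves at 7 days (2.89 and 1.87). Of 15 other cues and receptors 2 were higher and 3 lower at 3 days and 4 and 2 at 7 days. Flrt3, whose protein binds Unc5 receptors, was higher at both days (2.17 and 2.16), and Omg, a myelin inhibitor of axon growth, was lower (-1.54 and -1.53). Flrt3 and Unc5d thus moved in opposite directions on the same arrays.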

How the data were processed

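Biotin-labelled RNA of 12 auditory nerve preparations was hybridised to Affymetrix 3' expression arrays. The deposited values are log2 expression values that the authors made with RMA in Affymetrix Expression Console, as the processing notes and the methods state, and they were used as given. No build or annotation version is given in the sources used here. Fold changes and p-values of the authors' own comparisons were not used. Of 45101 probe sets 64 controls were left out, 34945 had 1 gene symbol, 932 several and 9160 none, and 0 value columns lacked a sample. No raw scanner values were used, so that background correction and scan batch were not varied. The small number of arrays limits the precision.

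One limma fit (limma 3.58.1, R 4.3.3) over the 12 arrays with 4 group means gave ouabain minus control at 3 and at 7 days, the difference between these, and ouabain at 7 days minus ouabain at 3 days. Empirical Bayes moderation had 3.86 prior degrees of freedom. Pathway and marker genes were read from the brightest probe set of each symbol. Tables and figures were made in Python 3.11.15 with matplotlib 3.10.9, and the fit was tested on simulated data. Called members of every family were given with all arrays, up to 4 a family by size of change. Members and lists were chosen with earlier results of these data known. Alternatives were a replicate block, other tests, scaling, filters, fold thresholds, the mean over probe sets and leaving out arrays. Promoter sequences are those of RefSeq (GRCm38.p6), matched by symbol for 60 of the 71 members.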

Additional observations from a re-analysis of the deposited data

Results flagged for a closer look

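Epha5 was the 1 member whose response to ouabain differed between the days by a test of the difference itself. A single call among 71 members is near the 1.17% of all genes that passed. By its brightest probe set, the log2 fold change at 7 days less that at 3 days was 0.81 (SE 0.16, limma adjusted p = 0.0373). On that probe set ouabain nerves lay above control on all 3 arrays at 7 days and on none at 3 days. The other 3 probe sets had 3-day changes of 0.29, 0.3 and 0.28, none of them called. The difference passed in 3 of the 4 Epha5 probe sets. It lost its call on leaving out any of 9 of the 12 arrays, and also where equal replicate numbers were taken as pairs. No explanation was tested.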

How the results depend on the processing

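No called gene changed its direction under any alternative run. Of 35 gene and day values called, 26 kept the call on leaving out each array in turn and 19 kept it under all 22 settings that left the fold threshold in place. The count of called members, 17 at each day, was 10 at 3 days and 11 at 7 days by the methods' test after Benjamini-Hochberg adjustment, 10 and 7 with a fold above 2, and 32 at 7 days with no fold threshold. Leaving out 1 array gave 13 to 17 at 3 days and 14 to 19 at 7 days. The count of members whose response differed between the days was 1. It was 2 without the first array of both ouabain groups (chosen after seeing the data), 2 with a variance trend and robust moderation, 2 with dim probe sets left out, 0 with a fold above 2, and 0 to 3 on leaving out 1 array. Whether equal replicate numbers mark the same mice was not given, and these values do not settle it. Same-numbered deviations correlated at 0.019 to 0.334, and differently numbered ones at -0.334 to 0.152. With the replicate block the calls numbered 17 at each day, the same genes, and the day difference 0 (for Epha5, adjusted p = 0.0937). The median change at 3 days (-0.006) lay too near 0 to keep a sign: it was 0.033 with the 75th percentile subtracted, 0.012 as the mean over probe sets, 0.002 after a second quantile normalization and -0.048 to 0.016 on leaving out 1 array. That at 7 days (0.191) was 0.155 without the first ouabain arrays, 0.124 as the mean over probe sets, 0.208 without dim probe sets and 0.148 to 0.208 on leaving out 1 array. The causes were not tested. Without the first ouabain arrays the calls of Unc5a at 3 days (-0.53, adjusted p = 0.0657) and Sema3a at 7 days (-0.82, adjusted p = 0.0754) were lost.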
